A study of Mus musculus with 96 samples.

Results

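H3K4me3 was compared between Mutyh-/- and wild type (WT) non-neuronal nuclei of the mouse hippocampus, region by region. The regions were the consensus peaks of the H3K4me3 table of NeuN- nuclei, 3270 in all, from which 4 peaks of a repeat cluster on chromosome 2 (chr2:98662501-98667360, annotated to Lrrc4c) were set aside, so that 3266 of the 22815 peaks of the whole series were tested. The libraries were 3 Mutyh-/- and 3 WT among 96 samples, and the 3 Ogg1-/- and 3 double knockout (DKO, lacking Ogg1 and Mutyh) libraries of the same table entered the fit. All mice were 6 months old and C57BL/6N, the knockouts lack their gene in every cell, and nuclei of several animals of a genotype had been pooled before they were sorted for the absence of NeuN, a neuronal nuclear protein. The sorted fraction therefore holds glia together with other non-neuronal cells. In such bulk material, fewer cells of a type and less H3K4me3 per cell cannot be told apart.

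H3K4me3, histone H3 trimethylated on lysine 4, marks the nucleosomes beside the start sites of active genes, most of which lie in stretches rich in CpG dinucleotides, and is scarce elsewhere. Mutyh encodes a DNA glycosylase that removes adenine mispaired with 8-oxoguanine, the most studied oxidised base, and Ogg1 encodes the glycosylase that removes 8-oxoguanine itself. Genes of DNA repair are active in all cell types, whereas the promoters of many lineage genes carry more of the mark in the cells that use them. Some carry it in other cells as well, beside the repressive mark H3K27me3, in what the paper calls bivalent domains.

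Most peaks were CpG-dense promoters, and 5 of the leading peaks are printed here to show how a promoter peak differs in sequence from the other leaders. Each is the central 300 bases of its peak on the plus strand of GRCm38.p6, read from RefSeq, with CpG dinucleotides in capitals. None of these windows held an exon base of GENCODE M21. Promoter peaks held a median of 33 CpG per 300 bases and the other peaks a median of 4. The first is a promoter peak that was higher in Mutyh-/- (Kif1b, chr4:149307099-149307398, 37 CpG).
Kif1b: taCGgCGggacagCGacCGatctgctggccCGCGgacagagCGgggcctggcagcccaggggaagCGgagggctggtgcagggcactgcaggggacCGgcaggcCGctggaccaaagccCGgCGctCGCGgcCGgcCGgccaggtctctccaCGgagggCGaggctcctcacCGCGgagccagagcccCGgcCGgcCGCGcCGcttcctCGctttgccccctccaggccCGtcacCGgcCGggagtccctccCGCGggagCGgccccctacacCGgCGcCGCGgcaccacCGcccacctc
The peak at Aida (chr1:183299129-183299428) is annotated as a promoter but lies 1509 bases inside the gene and had 4 CpG. Fbxw4 (chr19:45650020-45650319, an intron) had 2, and Axin2 (chr11:109011818-109012117, intergenic, 68147 bases from the gene's start) had 22. All 3 peaks were higher in Mutyh-/-.
Aida: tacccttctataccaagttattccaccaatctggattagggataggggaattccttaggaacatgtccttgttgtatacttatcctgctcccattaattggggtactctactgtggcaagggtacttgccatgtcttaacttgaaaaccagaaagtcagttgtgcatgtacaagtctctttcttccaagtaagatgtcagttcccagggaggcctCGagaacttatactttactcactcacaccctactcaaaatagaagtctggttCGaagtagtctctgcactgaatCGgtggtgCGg
Fbxw4: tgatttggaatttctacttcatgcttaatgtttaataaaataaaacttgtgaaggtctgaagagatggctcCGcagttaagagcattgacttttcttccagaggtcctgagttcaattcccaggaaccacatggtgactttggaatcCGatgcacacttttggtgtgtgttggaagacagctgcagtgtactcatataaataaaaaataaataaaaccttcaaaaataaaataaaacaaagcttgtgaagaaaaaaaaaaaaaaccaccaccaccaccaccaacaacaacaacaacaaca
Axin2: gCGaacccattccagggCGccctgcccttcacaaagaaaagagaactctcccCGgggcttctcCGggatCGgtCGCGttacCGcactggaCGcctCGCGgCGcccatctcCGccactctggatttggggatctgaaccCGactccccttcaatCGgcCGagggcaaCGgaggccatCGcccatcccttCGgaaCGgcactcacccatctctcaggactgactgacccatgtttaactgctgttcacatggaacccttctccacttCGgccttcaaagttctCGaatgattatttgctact
The last sequence lies upstream of Tmem125, at -4108 bases from its start (chr4:118548202-118548501), was lower in Mutyh-/- and is shown because it is a tandem repeat.
Tmem125: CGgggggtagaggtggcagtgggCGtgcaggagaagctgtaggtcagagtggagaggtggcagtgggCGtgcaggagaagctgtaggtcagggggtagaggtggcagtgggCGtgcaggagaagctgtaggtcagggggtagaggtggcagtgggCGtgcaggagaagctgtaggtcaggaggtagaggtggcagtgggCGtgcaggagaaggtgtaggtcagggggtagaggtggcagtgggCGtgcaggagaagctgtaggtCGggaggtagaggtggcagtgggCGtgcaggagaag
Shifted by 44 bases, the whole peak at Tmem125 matched itself at 95% of positions, and matches to it filled 1690 bases (chr4:118547048-118548737). With shifts of 10 to 100 bases, 3 of the 3266 peaks (0.0919%) reached 80%. The sequence at Axin2 resembles the gene of 28S ribosomal RNA, which cells carry in many copies, but no 28S sequence was aligned to it here.

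The libraries were shallow. Reads in the tested peaks numbered 28377, 46695 and 22912 in WT and 54218, 47873 and 19071 in Mutyh-/-, with a median of 4 to 14 reads per peak. Totals did not differ beyond their spread (log2 ratio 0.31, exact two-sided permutation test, p = 0.7, where 0.1 is the smallest p that 3 against 3 libraries allow). Values below are normalised reads, that is whole reads scaled to a common library size, on which 1 read was worth 0.69 to 1.94 normalised reads in these 6 libraries. The set-aside chromosome 2 peaks took 30.6% to 56.8% of the reads of WT libraries and 40.2% to 52.5% of those of Mutyh-/-. Replicate 1 of each genotype had the lowest share. It also had the smallest part of its remaining reads outside promoters (10.5% in WT, against 23.0% and 23.8% in the other WT libraries, and 14.9% in Mutyh-/-, against 22.5% and 21.5%). Profiles of peaks were only loosely alike, with a Spearman correlation of the log2 values of 0.09 to 0.29 within a genotype and 0.14 to 0.27 between WT and Mutyh-/-. The labels do not say whether the replicates shared animals or a day of preparation, and p-values measure only the spread between these libraries.

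No promoter peak of any of 20 neuron markers, Rbfox3 (the gene of NeuN) included, was in the table, whereas 17 of the 20 had one in the H3K4me3 table of NeuN+ nuclei. Oligodendrocyte markers had 6 of 20, astrocyte markers 4 of 16 and microglia markers 1 of 16, while oligodendrocyte precursors (0 of 8) and endothelial and mural cells (0 of 16) had none. Among the H3K4me3 peaks of NeuN+ nuclei, which were more numerous, these lists had 8 of 20, 8 of 16, 3 of 16, 2 of 8 and 4 of 16, in that order. Among the markers without a peak were Mbp, Gfap, Aqp4, Cx3cr1 and Cldn5. Since NeuN- cell types also lack peaks at their markers in this shallow table, a missing peak does not show that a cell type was absent. Glial markers with a peak were few, and their counts do not set the fraction apart from NeuN+ nuclei.

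Between Mutyh-/- and WT nuclei, 163 of 3266 peaks (4.99%) were called, 86 higher (2.63%) and 77 lower (2.36%) in Mutyh-/-. A call meant an unadjusted p under 0.05 and a log2 fold change past 0.5. The p threshold alone gave the same 163 peaks, and by itself it passes a share of 0.05 where nothing differs. No peak passed an adjusted p of 0.05 (limma on log2 values, Benjamini-Hochberg over all 3266 peaks). The smallest adjusted p was 0.108. edgeR and DESeq2 on the whole reads also gave no peak at an adjusted p of 0.05, and edgeR called 95 peaks by the unadjusted criterion. Promoters made up 3055 of the peaks, of which 71 were higher (2.32%) and 70 lower (2.29%), 4.62% in all. Among the 211 other peaks, 15 were higher (7.11%) and 7 lower (3.32%), 10.4% in all. Without Mutyh-/- replicate 2 this lean turned, to 8 higher and 12 lower. The median log2 fold change was -0.01 over all peaks, -0.01 over promoters and 0.03 over other peaks. With the authors' own library factors in place of the scaling used here, the median of all peaks moved to 0.22, and 78 peaks were higher and 20 lower. The 3 Mutyh-/- libraries lay wholly above or wholly below the 3 WT libraries at 339 peaks (10.4%), 168 above (5.14%) and 171 below (5.24%). Where nothing differs, 3 against 3 libraries split in this way with a probability of 0.1.

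**Figure D1:**
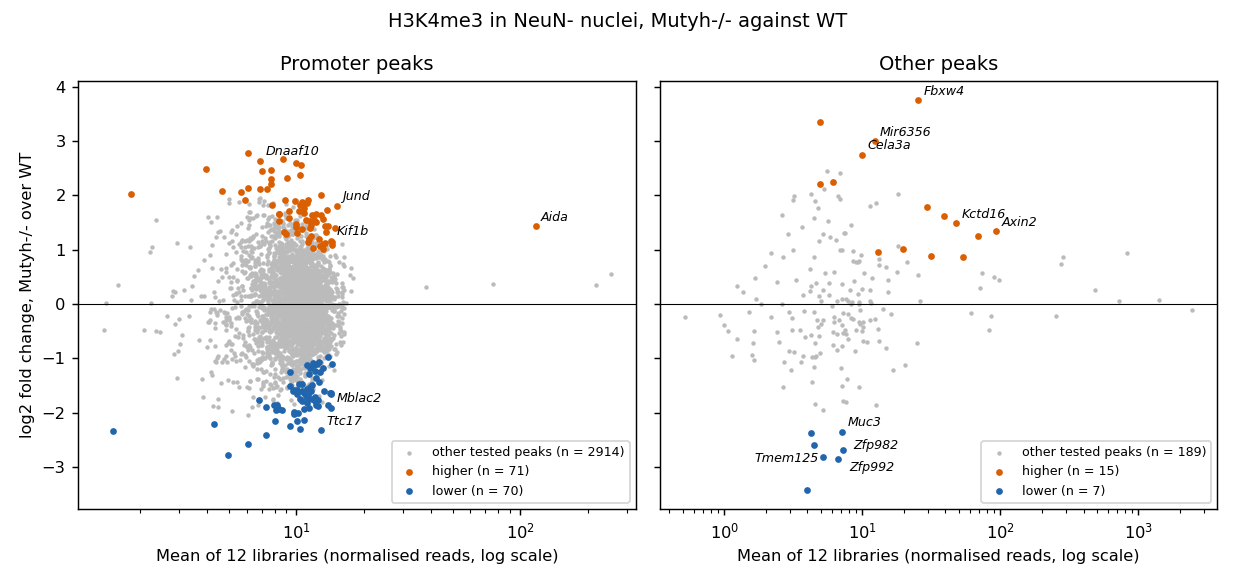
Each point is a peak, with its mean over the 12 libraries on a log axis in normalised reads (x) and the log2 fold change of Mutyh-/- over WT (y), promoter peaks at left and other peaks at right. Orange and blue points are the peaks called higher and lower. Promoter peaks crowd between 5 and 20 normalised reads, and the called promoters spread evenly to both sides, while the called other peaks include the more strongly enriched Kctd16 and Axin2.

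The leading promoters higher in Mutyh-/- belonged to genes of unlike roles. Msl1, a scaffold of the MSL histone acetyltransferase complex (chr11:98795958-98796358, 158 bases from the start), had 2.45, 6.15 and 3.43 normalised reads in WT and 13.7, 18.7 and 19.4 in Mutyh-/-. Here and at every leading peak the groups do not overlap, because only such peaks were named. The log2 fold change at Msl1 was 1.92 ± 0.54 (SE, n = 3 libraries per genotype), and the limma p of 0.0015 became 0.545 when adjusted. Jund, which encodes the AP-1 transcription factor JunD (chr8:70699530-70699930), had 2.45, 11.4 and 3.43 in WT and 19.9, 11.9 and 29.1 in Mutyh-/-. WT replicate 2 reached almost to the lowest Mutyh-/- library, and the log2 fold change was 1.81 ± 0.51 (limma, adjusted p = 0.545). E2f4, a cell cycle transcription factor, had 3.68, 5.27 and 8.57 in WT and 15.8, 26.4 and 17.5 in Mutyh-/-, a log2 fold change of 1.64 ± 0.56. Kif1b, a kinesin that carries mitochondria and synaptic vesicle precursors along axons, was tight in WT at 9.82, 9.67 and 8.57 and had 17.2, 20.4 and 31.1 in Mutyh-/- (log2 fold change 1.17 ± 0.40).

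The next promoters were near empty in some WT libraries. Washc4, a subunit of the WASH complex that builds actin on endosomes, had 0, 6.15 and 0 in WT and 8.25, 18.7 and 7.77 in Mutyh-/- (log2 fold change 2.60 ± 0.80). Mtfr1l, a regulator of mitochondrial shape, had 11, 2.64 and 0 in WT and 13.1, 18.7 and 21.4 in Mutyh-/- (2.38 ± 0.74). Without WT replicate 2, Washc4 moved to 3.53 and Dnaaf10, described next, to 3.25. Mtfr1l moved to 3.27 without WT replicate 1 and to 1.48 without WT replicate 3. Without the shallowest library of each genotype, replicate 3 of both, the change at Mtfr1l was 1.34 and at Kif1b 0.88 and neither was called. Dnaaf10, an assembly factor of ciliary dynein that GENCODE M21 lists as Wdr92, had 0, 2.64 and 0 in WT and 9.62, 8.51 and 7.77 in Mutyh-/-. As WT held 3 reads in all against 28, the ratio of summed reads was 7.52 with a 95% counting interval of 2.32 to 38.7. All 8 leading higher promoters had an adjusted p of 0.545 to 0.912.

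The promoters that led in the other direction had WT means of 16.1 to 23.8 normalised reads, above the median promoter in WT (9.83), as their choice favours, and lost most of their reads in one or more Mutyh-/- libraries. App, which encodes the amyloid precursor protein, had 17.2, 15.8 and 15.4 in WT and 10.3, 4.25 and 0 in Mutyh-/- (log2 fold change -2.13 ± 0.71). Rev3l, the catalytic subunit of the translesion DNA polymerase zeta, had 14.7, 22.0 and 30.9 in WT and 9.62, 9.36 and 1.94 in Mutyh-/- (-1.72 ± 0.59). In both, replicate 3 of Mutyh-/-, the shallowest library, was the lowest. Without replicate 3 of both genotypes the differences were -1.19 at App and -0.86 at Rev3l, neither called. Leaving out replicate 3 of Mutyh-/- alone also ended the call at Rev3l (-1.11) and moved App to -1.16, and leaving out replicate 1 moved App to -2.87.

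Mblac2, a metallo-beta-lactamase domain protein, had 18.4, 23.7 and 29.1 normalised reads in WT and 12.4, 5.95 and 1.94 in Mutyh-/-, a log2 fold change of -1.91 ± 0.53 (limma, adjusted p = 0.545). Ttc17, a tetratricopeptide repeat protein, had 23.3, 21.1 and 15.4 in WT and 4.12, 12.8 and 0 in Mutyh-/- (-2.32 ± 0.66), and Amer2, a membrane protein that recruits APC and restrains Wnt signalling, had 13.5, 23.7 and 18.9 in WT and 6.19, 4.25 and 3.89 in Mutyh-/- (-1.76 ± 0.55). Of the 8 leading lower promoters, Amer2 had the most even Mutyh-/- libraries. Leaving out Mutyh-/- replicate 3 moved Ttc17 to -1.30 and leaving out replicate 2 to -3.18. The peak at Ttc17 also covers the start of the antisense transcript 2810002D19Rik, and H3K4me3 does not tell the strands apart. Dync1li1 (a dynein light intermediate chain), Fbxo22 (a substrate receptor of a ubiquitin ligase) and Zfp622 (a factor of large ribosomal subunit maturation) had log2 fold changes of -1.86 ± 0.59, -2.25 ± 0.78 and -1.63 ± 0.57. At Dync1li1 the lowest WT library (12.3) stood just above the highest Mutyh-/- library (11.7), and without replicate 3 of both genotypes the difference was -1.16 and not called. Without Mutyh-/- replicate 3 Fbxo22 moved to -1.37, and without replicate 2 to -2.84. Zfp622 was no longer called without Mutyh-/- replicate 2 (-0.75) and moved to -2.28 without replicate 1.

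**Figure D2:**
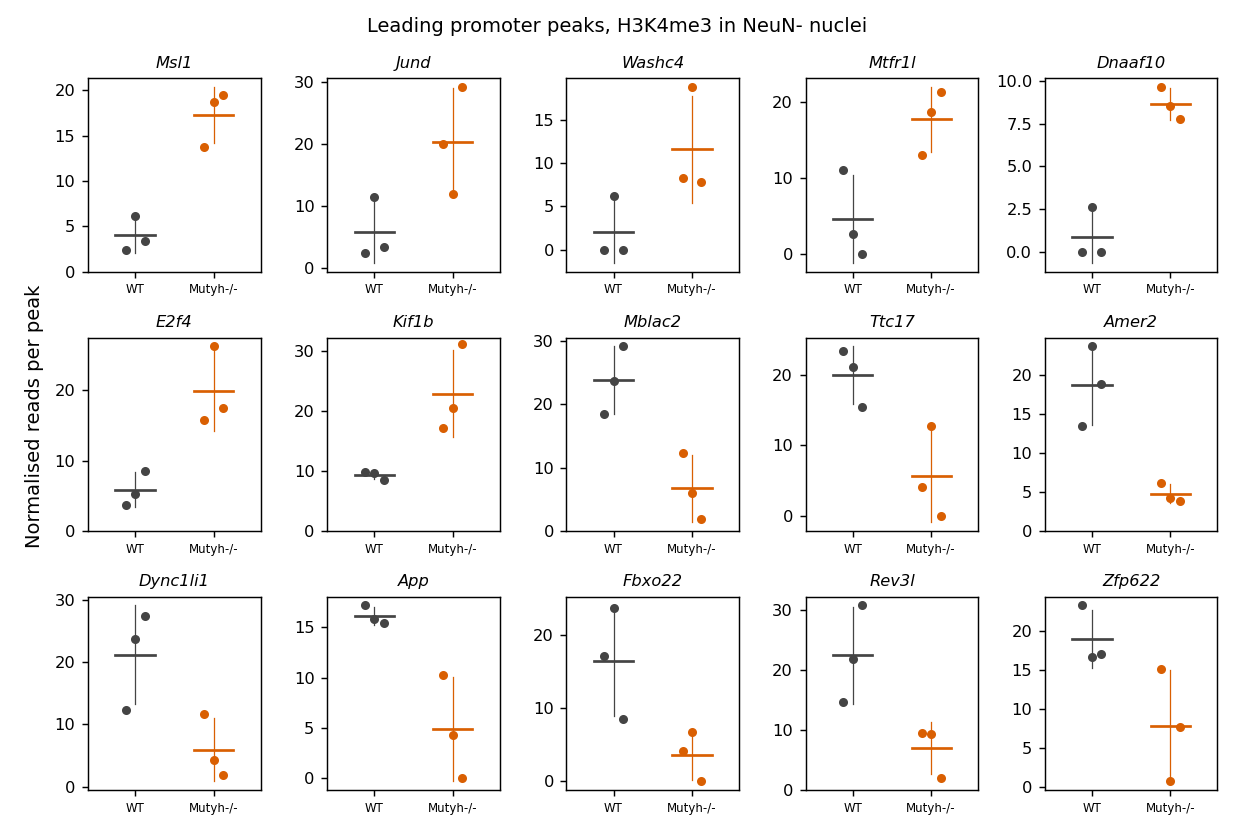
Normalised reads per library at 15 leading promoter peaks (Aida is plotted with the other peaks), WT in grey and Mutyh-/- in orange. Points are libraries in replicate order, horizontal bars means and vertical lines 1 SD. In each panel the 3 points of one genotype lie above the 3 of the other, as the naming rule requires. The gap is wide at Msl1 and Amer2 and narrow at Jund and Dync1li1.

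Sequence did not separate the called promoters from the rest. The higher promoters had a median GC content of 70.3% and 41 CpG per peak, the lower ones 72.4% and 47, and all promoters 70.6% and 43. At the other peaks, the median was 46.1% GC for those higher, 44.4% for those lower and 45.6% for all. Of the promoters called higher, 97.2% also had an H3K4me3 peak in NeuN+ nuclei, against 94.7% of all promoters. All 8 leading promoters in each direction had a NeuN+ peak, and only Aida among them overlapped a NeuN- peak of H3K27me3, the repressive mark of Polycomb repressive complex 2 (PRC2), or of its subunit Suz12. By blastn at 90% identity over 100 bases, none of the 16 matched a further place on the assembled chromosomes.

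Aida, which encodes an inhibitor of axin-mediated JNK signalling, stood apart from the other promoters in level. It had 63.8, 44.8 and 51.4 normalised reads in WT and 153, 146 and 134 in Mutyh-/-, a log2 fold change of 1.43 ± 0.40 (limma, adjusted p = 0.545). Ogg1-/- libraries had 132, 119 and 144, and DKO libraries 42.8, 211 and 167. All knockout libraries but DKO replicate 1 were above WT.

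Outside promoters, the peaks with the smallest p were all higher in Mutyh-/-. Axin2, a feedback inhibitor of Wnt signalling, was the nearest annotated gene of a peak with 50.3, 31.6 and 36.0 normalised reads in WT and 101, 106 and 91.3 in Mutyh-/-. The log2 fold change was 1.34 ± 0.30 (limma, adjusted p = 0.108). Kctd16, an auxiliary subunit of GABA-B receptors, held a peak in an intron (chr18:40308040-40308440) with 28.2, 19.3 and 18.9 in WT and 57, 68.0 and 64.1 in Mutyh-/- (1.49 ± 0.33, limma adjusted p = 0.108). The naming rule fixed that the genotypes do not overlap, and at both peaks the gap between them was wider than the range of either. The peak in an intron of Fbxw4, an F-box protein, had 0, 14.1 and 0 in WT and 26.1, 29.8 and 42.7 in Mutyh-/- (3.75 ± 0.76, limma adjusted p = 0.108). With the replicate block its adjusted p was 0.0026, and it also passed with the authors' factors, total reads as library size, a pseudocount of 4 or WT replicate 2 left out, whereas edgeR and DESeq2 gave 1.00 each. Leaving out WT replicate 2 moved its log2 fold change to 5.03, WT replicate 1 to 3.1 and WT replicate 3 to 3.12. Of its bases, 67.3% are soft-masked as repeats.

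Fbxw4 and Kctd16 are not independent of each other in sequence. A stretch of 106 bases at Fbxw4 matched the place of the Kctd16 peak at 96.2% identity, 58 of them inside the peak. An intergenic peak annotated to Mir6356, a microRNA gene (at -47065 bases from its start), had 0, 1.76 and 3.43 in WT and 13.7, 28.1 and 13.6 in Mutyh-/- (log2 fold change 3.0 ± 0.65), and part of it matched 1655 further places. Cela3a, a pancreatic elastase gene, is the nearest annotated gene of a peak over the exon of 2810405F17Rik, where WT had 0, 7.03 and 0 and Mutyh-/- 9.62, 10.2 and 19.4 (2.75 ± 0.78). Cela3a moved to 3.73 without WT replicate 2 and Mir6356 to 2.39 without WT replicate 1. The peaks annotated to Cela3a, Axin2 and Kctd16 had no second match on the assembled chromosomes at 90% identity over 100 bases. Copies outside these chromosomes were not counted, so the search could not find any such copy of the Axin2 sequence. The 58 bases shared by the peaks at Kctd16 and Fbxw4 fall short of that length.

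The same 5 peaks and Aida were also higher in the other knockouts against the same WT libraries, which the comparisons share and in which 5.14% of all peaks were called for Ogg1-/- and 5.39% for DKO. The peaks were chosen for low WT values, so a difference of the same sign is partly built in, and its size without one was not determined. At Axin2, Ogg1-/- had 105, 140 and 117 normalised reads and DKO 77.7, 151 and 106, and at Kctd16 Ogg1-/- had 48.9, 44.5 and 65.3 and DKO 25.9, 81.6 and 49.8. Over the 5 peaks, the log2 fold change against WT was 1.34 to 3.75 in Mutyh-/-, 1.22 to 3.21 in Ogg1-/- and 1.09 to 3.68 in DKO. Between DKO and Ogg1-/-, which differ in Mutyh and share no library with the first comparison, it was -0.43 to 0.47, and none of the 5 had a limma p under 0.05. Most knockout libraries were thus above WT at these peaks, the exceptions being Ogg1-/- replicate 1 at Fbxw4 and DKO replicate 1 at Kctd16, which lay within the WT range. This was not particular to these peaks. All 8 leading higher promoters were also above WT, by 0.51 to 3.07 in Ogg1-/- and 0.04 to 2.79 in DKO. Their limma p was under 0.05 at 6 of 8 in each. All 8 leading lower promoters were below WT, at -1.14 to -0.21 in Ogg1-/- and -1.24 to -0.31 in DKO. Promoters share the WT libraries and were chosen by WT values too, so the same limit holds.

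Peaks lower in Mutyh-/- outside promoters were few and poorly covered, and 4 met the rule for naming. At the tandem repeat upstream of Tmem125, a gene of a membrane protein, WT had 4.91, 12.3 and 12.0 normalised reads and Mutyh-/- 0, 0 and 1.94. Ogg1-/- libraries had 4.75, 12.2 and 9.33, like WT, and DKO libraries 2.41, 2.24 and 0, like Mutyh-/-. Every library without Mutyh was below every library with it, which the naming rule fixed for Mutyh-/- against WT. The log2 fold change was -2.81 ± 0.99 for Mutyh-/- over WT (limma, adjusted p = 0.912) and -2.05 ± 0.99 for DKO over Ogg1-/- (limma, adjusted p = 0.996), and both were called. With 1 read in Mutyh-/- against 25 in WT, the ratio of summed reads was 31.0-fold, and its 95% counting interval ran from 5.08 to 1273.

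Other antibodies and the NeuN+ nuclei gave low values at the Tmem125 repeat too. In H3K27me3 NeuN- the libraries without Mutyh had 0 to 3.60 and those with Mutyh 9.55 to 21.1 normalised reads. In Suz12 NeuN- the ranges were 0 to 0.81 and 0 to 14.9, and in H3K4me3 NeuN+ 0 to 4.76 and 0 to 22.9. Libraries without Mutyh that were at 0 numbered 3 of 6 in H3K27me3, 5 of 6 in Suz12 and 3 of 6 in H3K4me3 NeuN+. Those with Mutyh numbered 0, 2 and 1 of 6. The log2 fold change of Mutyh-/- over WT was -2.11 ± 0.98 in H3K27me3 (called, limma adjusted p = 0.940), -3.11 ± 1.06 in Suz12 (called, limma adjusted p = 0.341) and -0.99 ± 1.16 in H3K4me3 NeuN+ (not called). DKO over Ogg1-/- gave -4.12 ± 0.98 in H3K27me3, which passed the adjusted test (limma adjusted p = 0.0425), -3.45 ± 1.16 in H3K4me3 NeuN+ (called, limma adjusted p = 0.872) and -0.95 ± 1.06 in Suz12 (not called). Over all peaks, Mutyh-/- over WT called 4.78% in H3K27me3 and 4.22% in Suz12. The share that DKO over Ogg1-/- called there was not determined. Tables were scaled separately, so levels compare only within one, and the labels do not say whether libraries of different antibodies came from the same pools. The repeat lies 1.73 Mb from Mutyh, which is at chr4:116807723-116819440. The origin of the chromosome segment around the targeted Mutyh allele is not given in the sources used here, so loss of Mutyh and a difference carried by that segment cannot be told apart at this repeat.

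**Figure D3:**
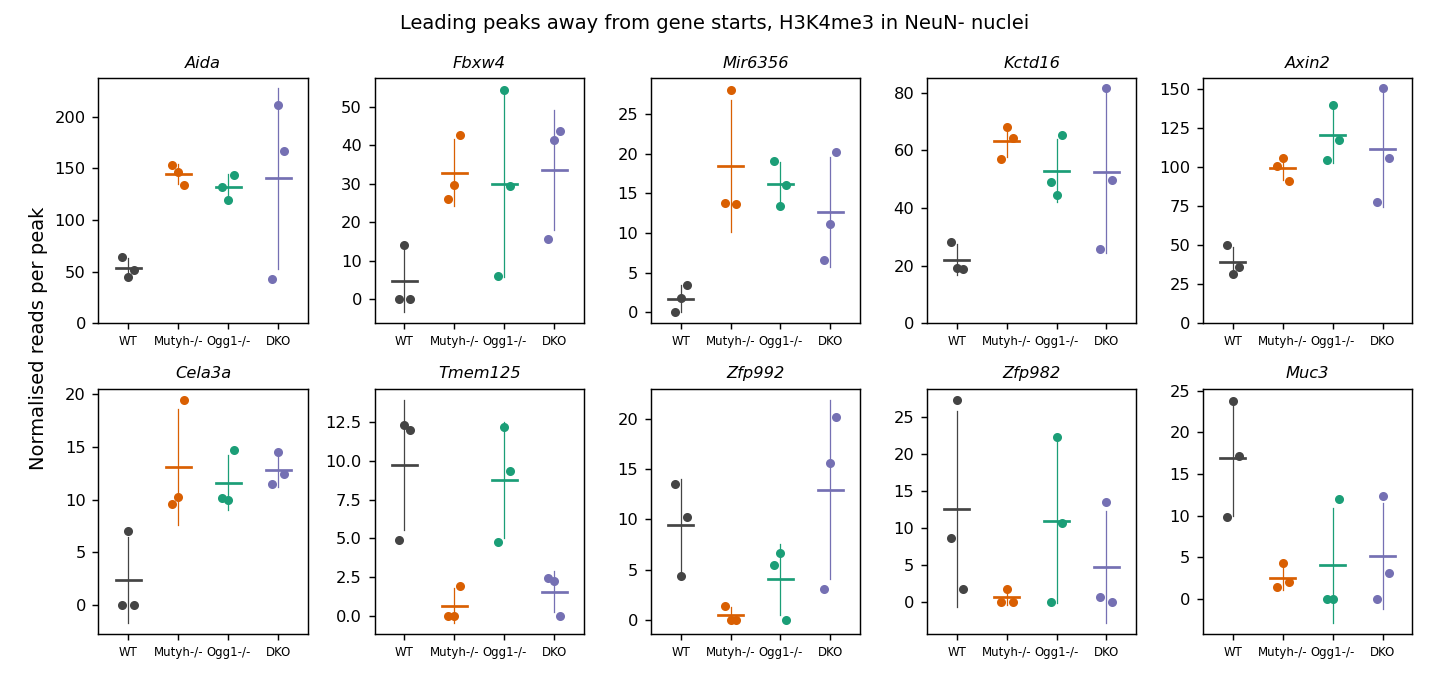
Normalised reads per library at Aida and the 9 leading peaks outside promoters in WT, Mutyh-/-, Ogg1-/- and DKO. Points are libraries, horizontal bars means and vertical lines 1 SD. In the upper row and at Cela3a the WT libraries are low and most libraries of the other genotypes higher, whereas at Tmem125 WT and Ogg1-/- are high and Mutyh-/- and DKO low.

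**Figure D4:**
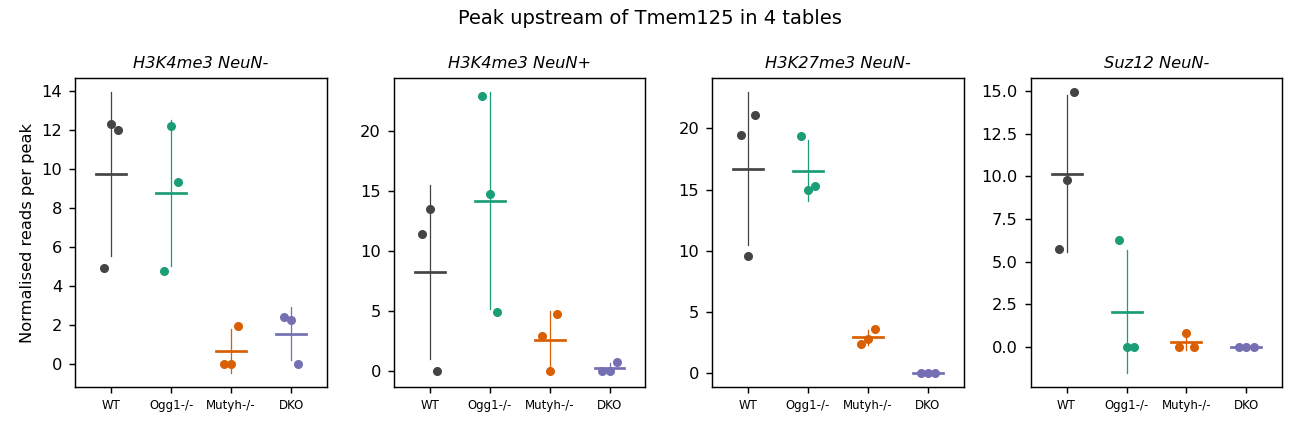
Normalised reads per library at the repeat upstream of Tmem125 in 4 tables, each on its own axis, with means (horizontal bars) and 1 SD (vertical lines). Mutyh-/- and DKO stay at or below 4.76 in every panel, while the highest library with Mutyh is at 12.3 to 22.9.

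The other 3 lower peaks were also poorly covered in Mutyh-/-. Zfp992 and Zfp982 are zinc finger genes of a cluster on distal chromosome 4. The peak in an intron of Zfp992 (chr4:146456530-146456930) had 13.5, 4.40 and 10.3 in WT and 1.37, 0 and 0 in Mutyh-/-, and the one annotated to Zfp982 (chr4:147436905-147437305), of which 86.8% is soft-masked, had 8.59, 27.3 and 1.71 in WT and 0, 1.70 and 0 in Mutyh-/-. Mutyh-/- held 2 reads at each, and the ratios of summed reads were 13.6-fold (counting interval 3.35 to 120) and 24.2-fold (6.26 to 207). The peak near Muc3, a mucin gene, had 9.82, 23.7 and 17.1 in WT and 1.37, 4.25 and 1.94 in Mutyh-/- (log2 fold change -2.35 ± 1.13, limma adjusted p = 0.928), and its call was lost in 5 of 6 fits that left out 1 library. At Zfp982 (log2 fold change -2.70) the call was lost in 4 of 6, with values of -1.86 without WT replicate 2 to -3.60 without WT replicate 3, and Zfp992 was no longer called without replicate 3 of both genotypes (-2.59). Unlike Tmem125, DKO libraries at Zfp992 (3.01, 15.7 and 20.2) were not low.

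Loss of Mutyh could be read a second time, from DKO against Ogg1-/-, in 6 libraries that the first comparison did not use. There 123 peaks (3.77%) were called, 60 higher (1.84%) and 63 lower (1.93%), and none at an adjusted p of 0.05 by limma. Without DKO replicate 1 the count was 188, 55 higher and 133 lower. Of the 163 peaks called in Mutyh-/- over WT, 6 were called again, 3 in the same direction (Tmem125, Maneal and Chd6) and 3 in the opposite one (Gm13034, E2f4 and Cux1). These are named because they are few, after their values were seen. Maneal, an endomannosidase-like protein, had 6.14, 0 and 0 normalised reads in WT, 4.81, 12.8 and 9.71 in Mutyh-/-, 2.04, 0 and 4.00 in Ogg1-/- and 12.7, 12.3 and 28.0 in DKO. Chd6, a chromatin remodeller, had 2.45, 0 and 1.71 in WT and 7.56, 6.80 and 9.71 in Mutyh-/-, and 4.75, 0 and 0 in Ogg1-/- and 6.63, 5.59 and 10.9 in DKO. At Chd6 every library without Mutyh was above every library with it, whereas at Maneal WT replicate 1 overlapped Mutyh-/-.

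At E2f4 the directions differed. Ogg1-/- had 7.47, 23.3 and 16.0 normalised reads and DKO 6.03, 6.71 and 4.67, a log2 fold change of -1.17 ± 0.56 against 1.64 ± 0.56 for Mutyh-/- over WT. Over all peaks, DKO lay wholly below Ogg1-/- at 157 (4.81%). The DKO libraries lay within the range of WT, the Mutyh-/- libraries above it, and of Ogg1-/- only replicate 1 reached down into it. Cux1, a homeobox transcription factor, had 18.4, 16.7 and 15.4 in WT, 8.25, 0.85 and 3.89 in Mutyh-/-, 4.75, 1.11 and 4.00 in Ogg1-/- and 11.4, 16.8 and 15.6 in DKO, so that its promoter was low in both single knockouts and near WT in the double. A test of non-additivity gave 127 peaks at an unadjusted p under 0.05 (3.89%) and 0 at an adjusted p (limma). That test shares the WT and Mutyh-/- libraries by which these peaks were picked, so its p-values for them are no separate evidence.

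Over all 3266 peaks the log2 fold changes of the 2 comparisons had a Pearson correlation of -0.02, given as a description across peaks, which share libraries and depth. Of the 86 higher peaks, 36 had a positive log2 fold change in DKO over Ogg1-/- and 50 a negative one. Of the 77 lower peaks, 31 were negative there and 46 positive. Among the 8 leading promoters in each direction, 3 and 3 kept their sign. The called peaks thus did not keep their direction as a group on the Ogg1-/- background.

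**Figure D5:**
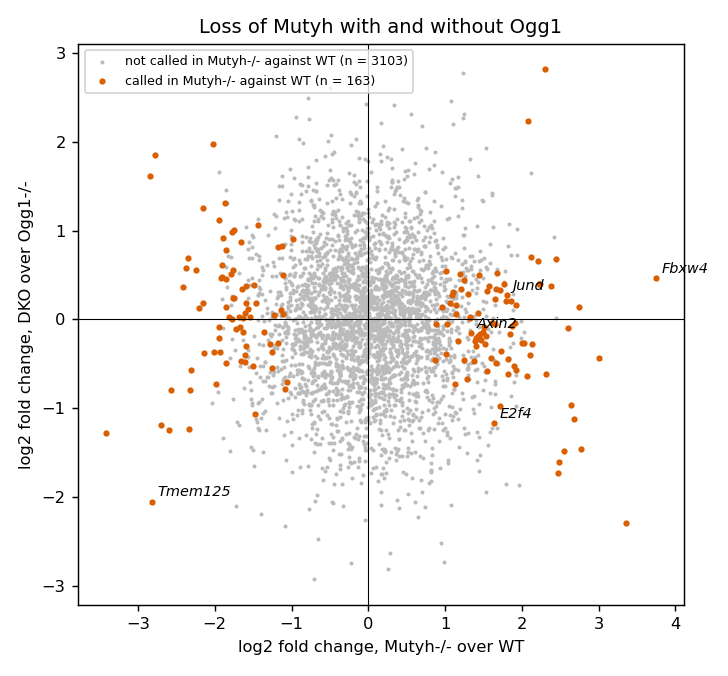
The log2 fold change of Mutyh-/- over WT (x) against that of DKO over Ogg1-/- (y) for 3266 peaks, with the 163 peaks called in Mutyh-/- over WT in orange. The orange points form bands at both sides that are centred near 0 on the y axis, and Tmem125 lies low on both axes while E2f4 lies on opposite sides.

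Groups of peaks were set beside the share called over all peaks (4.99%). Of 102 other peaks that overlap an H3K27me3 or Suz12 peak of NeuN- nuclei, 12 were higher and 4 lower, with a median log2 fold change of 0.21. The 109 other peaks that overlap neither had 3 higher and 3 lower and a median of -0.15. Promoters that overlap either were 33, with 1 higher (Aida) and 1 lower. DKO over Ogg1-/- called 3 of those 102 peaks, with a median of -0.15. Within 5 Mb of Mutyh lay 14 peaks, of which Tmem125 was lower and St3gal3, a sialyltransferase gene 1.32 Mb away, higher (log2 fold change 1.41, limma adjusted p = 0.928), and the median was 0.18. Mutyh had no peak in the 4 tables used, and Ogg1 had 1, in H3K4me3 NeuN+, so the promoter of the targeted gene could not serve as a check of the labels.

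No cell type marker was called. The 6 oligodendrocyte promoters (Olig1, Sox8, Ugt8a, Gpr37, Nkx6-2 and Fa2h) summed to 42.9 to 60.7 normalised reads in WT and 50.2 to 56.3 in Mutyh-/-, and none was called. The 4 astrocyte promoters (Glul, Slc1a2, Fgfr3 and Slc4a4) summed to 20.6, 27.3 and 30.7 in WT, taken from low to high, and to 33.0, 42.5 and 83.5 in Mutyh-/-. Their sums did not overlap but lay close (30.7 against 33.0), and each promoter on its own overlapped between the genotypes. All 4 log2 fold changes were above 0 with a median of 0.87, and none was called. Mutyh-/- replicate 3, the shallowest library, was the highest at Glul (25.3), Fgfr3 (21.4) and Slc4a4 (21.4). In DKO over Ogg1-/- the log2 fold changes were -0.42 at Glul, -0.35 at Slc4a4, 0.16 at Slc1a2 and 1.31 at Fgfr3. Slc4a4, a sodium bicarbonate cotransporter, came closest (log2 fold change 1.4 ± 0.70, limma adjusted p = 0.928), and Slc1a2, the main glutamate transporter of astrocytes, had 4.91, 12.3 and 3.43 in WT and 11, 16.2 and 15.5 in Mutyh-/-. Sall1, the microglial marker in the table, had 3.68, 5.27 and 8.57 in WT and 3.44, 11.9 and 1.94 in Mutyh-/-. Whether the share of astrocytes differed between the genotypes was not tested.

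Repair and antioxidant genes held few promoters at this depth. Base excision repair had 5 of 24 genes in the table (Lig3, Apex1, Nthl1, Fen1 and Ung) and none called, with a median log2 fold change of 0.46. Apex1, the main abasic site endonuclease, had 7.36, 5.27 and 17.1 normalised reads in WT and 8.93, 4.25 and 9.71 in Mutyh-/-, overlapping throughout. Antioxidant defence had 4 of 26, and Sod2, the mitochondrial superoxide dismutase, was called lower (18.4, 13.2 and 6.86 in WT and 17.9, 2.55 and 0 in Mutyh-/-, log2 fold change -1.67 ± 0.77, limma adjusted p = 0.928), although Mutyh-/- replicate 1 was at the WT level. The writers and erasers of H3K4 methylation had 9 of 18 genes and none called, with 3 above 0 and 6 below and a median of -0.34. Kdm5b, an H3K4 demethylase, had 17.2, 15.8 and 10.3 in WT and 9.62, 9.36 and 7.77 in Mutyh-/- without overlap, yet was not called (-0.61 ± 0.52).

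PRC2 genes had 4 of 13 promoters in the table and none called (median -0.33). Ezh2, its methyltransferase, had 12.3, 18.5 and 13.7 in WT and 13.7, 5.95 and 11.7 in Mutyh-/-. The Wnt list, which includes Aida and so was chosen with its result known, had 14 of 28 promoters, of which Aida was called, and the median was 0.00 with 7 above and 7 below 0. Dvl1, a cytoplasmic relay of the Wnt receptor, overlapped fully at 11, 21.1 and 18.9 in WT and 12.4, 19.6 and 15.5 in Mutyh-/-. Cytosolic ribosomal proteins had 12 of 66, with a median of 0.50 and 11 of 12 above 0. Rpl6 was called (0, 5.27 and 15.4 in WT and 6.87, 18.7 and 19.4 in Mutyh-/-, log2 fold change 1.65 ± 0.72, limma adjusted p = 0.928), and the genotypes overlapped there. The summed ribosomal promoters ran from 89.6 to 125 in WT and from 111 to 161 in Mutyh-/-, and so overlapped as well. In DKO over Ogg1-/- the log2 fold changes of these 12 promoters lay on both sides of 0, from -1.01 at Rps14 to 2.21 at Rpl30.

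In NeuN+ nuclei, where 12625 peaks were tested, 473 (3.75%) were called in Mutyh-/- over WT, 239 higher (1.89%) and 234 lower (1.85%). Most leaders of the non-neuronal comparison did not repeat there. Jund had 34.1, 39.0 and 40.2 normalised reads in neuronal WT and 13.2, 35.7 and 17.5 in neuronal Mutyh-/-, a log2 fold change of -0.86 ± 0.30 (called, limma adjusted p = 1.00), the opposite of its direction in NeuN- nuclei, and the genotypes overlapped. At Axin2 the neuronal libraries had 22.7, 43.1 and 52.6 in WT and 85.3, 91.7 and 72.2 in Mutyh-/- (1.13 ± 0.38, called, limma adjusted p = 1.00), higher as in NeuN- nuclei and without overlap. App had -0.13 ± 0.31, Msl1 -0.11 ± 0.26, Mblac2 0.23 ± 0.25 and Kif1b -0.12 ± 0.24. The difference between the fractions was not tested, since each table was scaled on its own. At Kctd16, which had no NeuN+ H3K4me3 peak, the other NeuN- antibodies were higher in Mutyh-/- too, by 2.11 ± 0.79 in H3K27me3 (limma adjusted p = 0.940) and 2.71 ± 0.87 in Suz12 (limma adjusted p = 0.272), both called. The other leading higher peaks with these antibodies were not called in either. Their H3K27me3 and Suz12 log2 fold changes were -0.85 and -0.27 at Fbxw4 and 0.94 and 0.24 at Mir6356. At Axin2 they were 0.95 and 0.20, and at Aida 1.43 and 0.96.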

How the data were processed

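The tables hold H3K4me3 ChIP-seq of NeuN- nuclei, with 3 replicates of WT, Mutyh-/-, Ogg1-/- and DKO. H3K4me3 NeuN+, H3K27me3 NeuN- and Suz12 NeuN- were used beside it, and inputs were not used here. The authors aligned reads to GRCm38/mm10 (Bowtie2 2.3.5.1), called regions, counted reads over 401-bp consensus peaks (DiffBind 3.10.1) and annotated peaks (ChIPseeker 1.36), per the labels and the study's methods. The deposited unit is signal (the reads of a peak over a library factor), and 100% of values were whole multiples of one step (tolerance 1e-06), so whole reads were recovered.

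Reads were scaled by TMM (edgeR 4.0.16) to the mean effective library size of 39783 reads, after the chromosome 2 peaks were left out. limma 3.58.1 (trend) was fitted on log2(normalised reads + 1) over 12 libraries with genotype as the only term, with Benjamini-Hochberg adjustment over all peaks. A fold change on this scale understates that of low peaks. A peak was called at p under 0.05 and a log2 fold change past 0.5. Tests on signal were foreseen, so the count tools (edgeR and DESeq2 1.42.0 on recovered reads) are alternatives. The fit was tested on simulated reads.

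Named peaks were called, had no overlap between genotypes and a mean of at least 5 normalised reads; the 8 promoter and 5 other peaks of smallest p per direction were taken, with called members and the 3 strongest members of each gene list. The members and lists were chosen with earlier results of these data known. A list's gene counted where a promoter peak was annotated to it. Sequences came from GRCm38.p6 and were searched with blastn 2.17.0 (R 4.3.3, Python 3.11.15). Intervals are exact Clopper-Pearson and cover counting error only. Alternatives changed scaling, pseudocount, filter, tool, the libraries fitted and the replicate block. Same-numbered WT and Mutyh-/- libraries deviated together weakly across peaks (correlations of 0.018 to 0.068), and the main fit did not pair them. Replicate 1 of each genotype had the smallest part of its remaining reads outside promoters. A promoter sequence and a marker gene are not reported here.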

Additional observations from a re-analysis of the deposited data

Results flagged for a closer look

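At 3 leading promoters that were higher in Mutyh-/-, every DKO library was lower than every Ogg1-/- library, as at 4.81% of all peaks. This is the opposite direction to Mutyh-/- over WT, where the naming rule required every Mutyh-/- library to be higher. The log2 fold change of DKO over Ogg1-/- was -1.17 ± 0.56 at E2f4, -0.96 ± 0.87 at Dnaaf10 and -0.25 ± 0.40 at Kif1b, with a limma adjusted p of 0.996 at each, and only E2f4 was called. The test of non-additivity gave limma p-values of 0.0015, 0.0074 and 0.021 and an adjusted p of 0.912 at each, and it shares the libraries by which these peaks were chosen. Groups of 3 libraries were too small for a search for single outlying libraries.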

How the results depend on the processing

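Over the 25 named leading peaks and all settings but those chosen after seeing the data, 456 values kept direction and call, 19 kept direction but lost the call (at Rev3l, Zfp622, Zfp982 and Muc3), and none changed direction. These peaks were named for being called without overlap between the genotypes. Refits of the same reads could therefore hardly change their direction, and these counts are no separate support. With the authors' library factors, 98 peaks were called in Mutyh-/- over WT (73 promoters), 60 in DKO over Ogg1-/- and 118 in NeuN+ nuclei, and with edgeR 95 (76 promoters). A fit of the 6 libraries alone called 93 promoters. Other peaks called numbered 13 with low peaks left out and 14 with DESeq2. At an adjusted p of 0.05, the authors' factors gave 4 peaks (Fbxw4, Aida, Kctd16 and Axin2), the 6 libraries alone 3 (Aida, Kctd16 and Axin2), and total reads as library size, a pseudocount of 4 and the replicate block 1 each, which was Fbxw4. Leaving out 1 library gave 115 to 219 called peaks in all, 0 to 1 at an adjusted p (1, Fbxw4, without WT replicate 2), 83 to 188 in DKO over Ogg1-/- (188 without DKO replicate 1) and 0 to 1 non-additive peaks (1 without WT replicate 2). The share of called peaks that were higher ran from 28.7% without Mutyh-/- replicate 2 to 70.2% without WT replicate 2, against 52.8% with all libraries. With the replicate block, 169 peaks were called, 90 higher and 79 lower. Same-numbered WT and Mutyh-/- libraries deviated together with a correlation of 0.068, 0.020 and 0.018. Between Ogg1-/- and DKO the values were 0.128, 0.022 and 0.018. The main fit did not pair the libraries. Each Mutyh-/- library correlated best with its own number, and replicate 1 of each genotype had the smallest part of its remaining reads outside promoters. These are hints of a shared replicate structure from the data and not from the design. Of the settings chosen after seeing the data, leaving out repeat peaks gave 156 calls and leaving out replicate 3 of both genotypes 129, and 8 values of named peaks lost the call under these settings. At 4 to 14 reads per peak, small differences were not detectable at this depth.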
